A study of Mus musculus with 6 samples.

Results

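Cd93 and its 3 relatives Thbd, Cd248 and Clec14a form the group XIV family of C-type lectin-domain proteins, and their 4 genes were followed across 6 RNA-seq libraries out of 21958 gene rows in the deposited table. Rows were taken by gene name. Cd93 was selected on its large rise in read counts between the groups below, so its values are given as a description without a test; the other 3 were taken as its family and not for their values. The line sequenced was RAW264.7, which is macrophage-like, of mouse origin and derived from a tumour induced by Abelson leukaemia virus. In 3 libraries the cells had been given lipopolysaccharide (LPS, a bacterial outer membrane component that activates macrophages), and in the other 3 they had been given LPS and co-cultured with BMSCs (bone marrow stromal cells, as the abbreviation is commonly read). LPS was common to both groups, no group without LPS was analysed, and dose, duration, the species of the BMSCs and whether the cells touched are not stated in the labels. The series title and design text also name a printed scaffold and the growth factor bFGF, which the sample labels do not mention. The labels call the replicates biological, and for LPS replicate 3 the title has RAW264.9 where the characteristics have RAW264.7.

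Group XIV proteins sit in the plasma membrane. They have a C-type lectin-like domain at the outer end, an EGF-like region, a mucin-like stalk, a membrane span and a short tail. CD93 is found on endothelial cells, monocytes, neutrophils, platelets and early B cell precursors; it takes part in endothelial adhesion and in the clearance of dying cells, and a soluble form is shed from activated myeloid cells. Thrombomodulin, the product of Thbd, binds thrombin and turns it from a clotting enzyme into the activator of protein C, and its lectin-like domain dampens inflammation. Endosialin (Cd248) marks pericytes and fibroblasts, and CLEC14A marks endothelium. CD93, endosialin and CLEC14A bind the matrix protein multimerin 2.

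The genes lie at 3 places in the genome. In GRCm38 coordinates from GENCODE M21, Cd93 (ENSMUSG00000027435) spans chr2:148436640-148443563 and Thbd (ENSMUSG00000074743) spans chr2:148404466-148408188, both on the minus strand and separated by 28451 bp with no protein-coding gene between them. Cd248 (ENSMUSG00000056481) spans chr19:5068078-5070682 on the plus strand, and Clec14a (ENSMUSG00000045930) spans chr12:58264720-58269290 on the minus strand. All 4 are annotated as protein coding with 1 transcript each. Cd93 has 2 exons, whereas Thbd, Cd248 and Clec14a each have 1 exon. Their coding sequences run to 644 codons in Cd93, 577 in Thbd, 765 in Cd248 and 459 in Clec14a, and the 3′ untranslated region takes 4603 of the 6677 bases of the Cd93 transcript.

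Because Cd93 and Thbd are neighbours and relatives, their sequences were compared to see how far reads of one could be taken for the other. The longest run of bases shared exactly by the 2 transcripts was 16 bases, and over the 6 pairs of members the longest shared run ranged from 12 to 16 bases. The best local match between the Cd93 and Thbd coding sequences falls in the part that codes for EGF-like repeats, at chr2:148442189-148442287 in Cd93 and chr2:148406885-148406983 in Thbd (GRCm38, minus strand). It matches 69 of 101 aligned columns, 4 of them gaps, and is shown because it is where the pair are most alike. Both stretches are written 5′ to 3′ along the gene, with capitals for the bases that are identical in the alignment.
Cd93: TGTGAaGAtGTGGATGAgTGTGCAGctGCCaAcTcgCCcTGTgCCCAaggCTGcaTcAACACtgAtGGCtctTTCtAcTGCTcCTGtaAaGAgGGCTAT
Thbd: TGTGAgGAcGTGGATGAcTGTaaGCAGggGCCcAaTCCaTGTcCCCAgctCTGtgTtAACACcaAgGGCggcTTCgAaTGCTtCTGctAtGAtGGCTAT

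Total counts per library ranged from 17716460 to 22539884, so the detection floor of 3 counts corresponded to 0.133 to 0.169 CPM (the count as a share of all counts, scaled to parts in 1e6). Of 10 macrophage markers, 9 had enough counts to be tested, of which 4 rose, 1 fell and 4 did not pass. Among those that rose were Lyz2 (lysozyme), at 10960 ± 229 CPM with LPS and 17941 ± 1299 CPM with co-culture, and Cd14 (the LPS co-receptor), at 3152 ± 38.5 and 5799 ± 222 CPM (mean ± SD, n = 3 each, CPM scaled by TMM, the trimmed mean of M-values). Under an offset for length and GC content of genes their log2 fold changes went from 0.71 to 0.15 and from 0.88 to 0.27. Fcgr1, an IgG receptor gene, fell 1.72-fold. Adgre1 (F4/80), Csf1r (the M-CSF receptor) and Itgam (CD11b) were among those that did not pass, at log2 0.01, 0.01 and 0.03. The first 2 of these passed as lower with library totals and on FPKM (log2 -0.17 each). Itgam passed as higher without co-culture replicate 1 (log2 0.12, adjusted p 0.0103, edgeR). The efferocytosis receptor Mertk had at most 5 counts in any library. Pairs of co-culture replicates were farther apart, with 5.16 to 26.8 as the chi-square divided by its degrees of freedom, than pairs of LPS replicates, with 1.71 to 2.11. edgeR's quasi-likelihood test covered 11103 genes, of which 75.5% had an adjusted p under 0.05, 37.5% as higher and 38% as lower in co-culture. The groups did not overlap for 80.2% of genes and did not overlap with co-culture higher for 39.8%. Of the called genes 49.6% were higher under TMM scaling and 38.3% under library totals, and the median log2 fold change over all genes shifted from 0.001 to -0.177. Values below are relative to the TMM scale.

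Cd93 went from a low to a moderate level. With LPS alone 42, 46 and 63 reads were counted in replicates 1, 2 and 3, and with co-culture 1834, 1607 and 1714. Each co-culture library thus held many times the count of any LPS library, and the groups lay far apart, as they did without overlap and with co-culture higher for 39.8% of all genes tested. On the TMM-scaled CPM scale the level was 2.35 ± 0.245 with LPS and 88.3 ± 5.24 with co-culture (mean ± SD, n = 3 each). The spread between replicates, as a coefficient of variation, was 10.4% and 5.93%. The log2 fold change was 5.22 (SE 0.10), the rank of which was 19 of 11103 from the highest, in a comparison where 0.45% of genes were called and at least 10-fold higher. Among genes with any count in the same library, the Cd93 level per length stood at the 21.1 to 23.5 percentile with LPS and at the 72.8 to 74.8 percentile with co-culture. In these bulk libraries, a larger share of cells with Cd93 and more Cd93 RNA per cell cannot be told apart.

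Thbd, the gene next to Cd93, was also higher in co-culture but at a much lower level. Its counts were 1, 4 and 3 with LPS and 73, 67 and 80 with co-culture, so that with LPS it was at or near the detection floor, reaching 3 counts in 2 of 3 libraries. All co-culture libraries lay above all LPS libraries, as they did for 39.8% of all genes tested. Over each group, 8 counts stood against 220, a depth-scaled ratio of 30.1 with an exact 95% counting interval of 15.0 to 70.5, which covers counting error only. The fitted log2 fold change was 4.85 (SE 0.31), with an adjusted p of 1.11e-06 over all genes tested by edgeR, in a comparison where 37.5% of genes were called higher. Thbd passed the filter on low counts through the co-culture group alone, and a gene that enters in this way had to differ. For Cd93 the same ratio of summed counts was 37.3.

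The levels of Cd93 and Thbd can be compared per length through the deposited FPKM (reads per kilobase of gene length, scaled to the library total). Cd93 stood at 0.355, 0.349 and 0.419 FPKM in the LPS libraries and at 12.5, 11.8 and 13.0 FPKM in the co-culture libraries. Thbd stood at 0.0152, 0.0544 and 0.0358 FPKM with LPS and at 0.893, 0.880 and 1.09 FPKM with co-culture. The Cd93 level was therefore 11.9 to 14.0 times the Thbd level in each co-culture library, and 6.41 to 23.4 times in the LPS libraries, where few Thbd reads make the ratio uncertain. Counted together, Thbd gave 5.03% of the reads of the pair with LPS and 4.09% with co-culture. On the log2(FPKM + 1) scale, which compresses low values, the differences were smaller, at 3.29 for Cd93 and 0.92 for Thbd.

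Cd248 and Clec14a were not detectable at this depth in either group. Cd248 had 0 counts in 5 libraries and 1 count in co-culture replicate 3. Clec14a had 0 counts in all 6 libraries. A count of 0 allows up to 3 counts in a library, which is 0.0511 to 0.0650 FPKM for Cd248 and 0.0291 to 0.0370 FPKM for Clec14a. By level, the order in every co-culture library was thus Cd93 above Thbd, and Thbd above both undetected genes. With LPS the Thbd values of 0.0152 to 0.0544 FPKM reach below the limit that 0 counts allow for Cd248, so those genes cannot be ordered there. Neither gene passed the filter on low counts, and no fold change is given for them. Of the 4 members, 2 were tested.

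**Figure D1:**
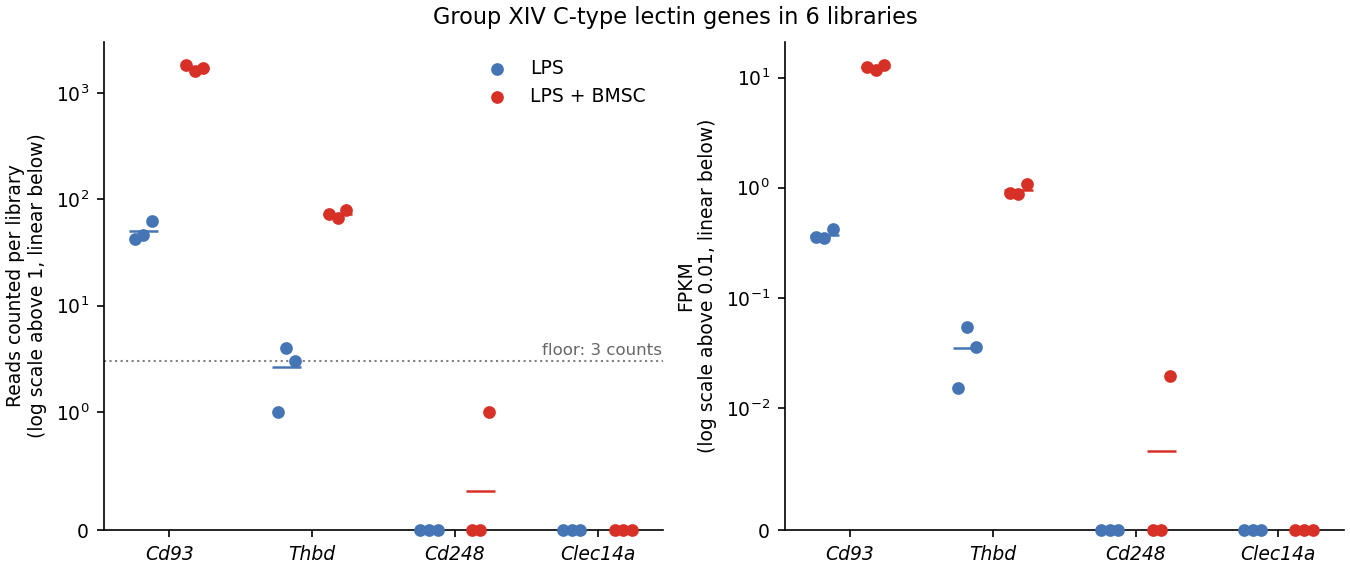
Reads counted per library (left) and FPKM (right) for the 4 genes in the 3 LPS and the 3 LPS + BMSC libraries; points are libraries, short lines are means, the dotted line is the floor of 3 counts, and both axes are logarithmic except near 0. Cd93 moves from 42 to 63 reads to 1607 to 1834 reads and Thbd from 1 to 4 reads to 67 to 80 reads, while Cd248 and Clec14a stay at 0 or 1 read.

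The protein-coding genes around the pair did not share a change of that size. Of 17 annotated genes that start within 1 Mb of the Cd93 start, 16 are in the table, 10 of these had no reads in any library and 4 were tested, of which 2 rose and 1 fell, where 75.5% of all genes tested were called, with a median log2 fold change of 0.17 against 0.001 for all genes tested. Sstr4, a somatostatin receptor gene that starts 48.2 kb from Cd93 beyond Thbd, had 0 counts in all libraries. On the other side, Nxt1, an mRNA export cofactor that starts 229.0 kb away, was 1.37-fold higher (39.8 ± 2.19 against 54.5 ± 1.48 CPM, LPS first, mean ± SD, n = 3 each). Gzf1, a zinc finger gene, did not pass, at 49.0 ± 1.45 CPM with LPS and 45.4 ± 3.12 CPM with co-culture, and passed as lower with library totals (log2 -0.29), on all FPKM scales and without co-culture replicate 3 (log2 -0.16). Napb, which encodes a SNAP protein of vesicle fusion, fell 2.07-fold. Cst3 (cystatin C, a secreted protease inhibitor) rose 2.09-fold, from 314 ± 7.29 to 656 ± 87.7 CPM. These values moved with gene length and base composition: after an offset for length and GC content of genes, the log2 fold change of Cst3 went from 1.06 to 0.19 and that of Nxt1 turned from 0.46 to -0.40, whereas those of Cd93 and Thbd were 5.53 and 4.68.

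**Figure D2:**
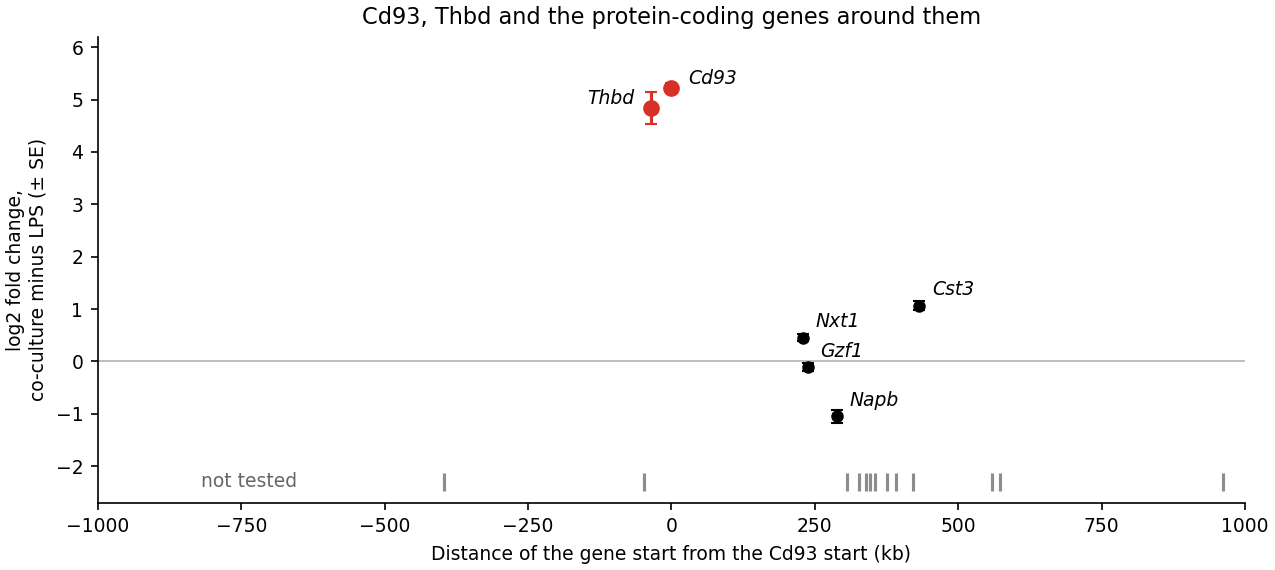
Log2 fold change (co-culture minus LPS, bars are SE) of Cd93, Thbd and the tested protein-coding genes by distance from the Cd93 start in kilobases; ticks at the bottom mark annotated genes that were not tested. Cd93 at 5.22 and Thbd at 4.85 stand side by side, and the nearest other tested gene, Nxt1, at 229.0 kb, is at 0.46.

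Of the genes for ligands, partners and sheddases of CD93, endosialin and CLEC14A, most matrix ligands were near absent. Of 20 listed genes 13 were tested, 3 rose and 6 fell, with a median log2 fold change of 0.07 against 0.001 over all genes tested. The 9 of 13 called compare with 75.5% called over all genes tested, 37.5% as higher and 38% as lower. Mmrn2 (multimerin 2) had 4, 10 and 6 reads with LPS and 13, 9 and 11 with co-culture; the groups overlapped and the gene did not pass (adjusted p 0.0793, edgeR), although it passed as higher without LPS replicate 2 (adjusted p 0.0317). Igfbp7, a secreted CD93 ligand, had at most 4 reads in any library. Fn1 (fibronectin), Col1a1 and Col1a2, matrix ligands of endosialin, had at most 1 read. Lgals3bp, a secreted endosialin ligand, was abundant at 627 ± 5.5 and 656 ± 59.1 CPM and did not pass, and was lower under the offset for length and GC (log2 -0.36).

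Inside the cell, Gipc1, an adaptor that binds the CD93 tail, was 1.77-fold higher, but its log2 fold change of 0.82 fell to 0.07 (adjusted p 0.228, edgeR) with that offset. Msn (moesin), which links the CD93 tail to actin, fell 2.15-fold, from 1662 ± 23 to 774 ± 118 CPM. Cbl, a ubiquitin ligase phosphorylated downstream of CD93 in endothelial cells, fell 2.09-fold, and the kinase Src rose 1.45-fold. Dag1 (dystroglycan), a CD93 partner in endothelial cells, fell 1.7-fold. Of the integrin pair that binds fibronectin, Itga5 rose 1.45-fold and Itgb1 fell 1.4-fold. The sheddase genes Adam10 and Adam17 fell 2.19-fold and 1.84-fold. The rhomboid protease gene Rhbdl2, whose product cleaves thrombomodulin and CLEC14A, had 0 reads in all 6 libraries.

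CD93 was first described as a receptor for C1q and related collectins. Of 7 listed genes of that kind, 2 were tested. C1qa, C1qb and C1qc, the chains of C1q, had at most 1 read in any library. Calr (calreticulin, which binds C1q on the cell surface) rose 1.68-fold to 3081 ± 195 CPM, and Lrp1, its partner receptor in phagocytosis, fell 1.55-fold to 674 ± 24.3 CPM. The median log2 fold change of these 2 genes was 0.06.

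Around thrombomodulin, the genes that rose included the anticoagulant Procr and the procoagulant F3. Of 18 listed genes of the thrombin and protein C pathway 10 were tested, 5 rose, 1 fell and 4 did not pass, with a median log2 fold change of 0.54 against 0.001 over all genes tested. The 6 of 10 called compare with 75.5% called over all genes tested, 37.5% as higher. Of the 5 that rose, F5 passed the filter on low counts through the co-culture group alone and so had to differ. It is part of this count and of the median. Procr, the endothelial protein C receptor that presents protein C to the thrombin-thrombomodulin complex, had 3436, 3928 and 4406 reads with LPS and 8880, 7797 and 7748 with co-culture, and rose 2.27-fold (184 ± 2.31 to 418 ± 22 CPM). The groups did not overlap for this gene, as with co-culture higher for 39.8% of all genes tested.

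F5 (coagulation factor V, a cofactor that activated protein C cuts) had 0 reads in each LPS library and 18, 13 and 12 with co-culture. Set against the floor of 3 counts per library, it was at least 4.54-fold higher. F3 (tissue factor, which starts clotting) rose 2.16-fold at a low level, from 1.45 ± 0.314 to 3.13 ± 0.402 CPM. F10 (factor X) was 1.48-fold higher but did not pass under the offset for length and GC (log2 0.21, adjusted p 0.0503, edgeR). Pros1 (protein S, the cofactor of activated protein C) fell 2.18-fold, from 13.2 ± 0.766 to 6.05 ± 0.724 CPM.

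The genes of thrombin and of most protease-activated receptors were near absent. F2, the prothrombin gene, had at most 3 reads. F2r and F2rl1, protease-activated receptors, had 0 reads in all libraries, and F2rl3 had at most 2. F2rl2, of the same family, had 12, 10 and 11 reads with LPS and 13, 13 and 9 with co-culture, and did not pass. Hmgb1, a nuclear protein that the thrombomodulin lectin domain binds once it is released, did not pass, at 86.2 ± 5.87 CPM with LPS and 85.8 ± 1.14 CPM with co-culture; it passed as lower with library totals (log2 -0.18) and as higher under the offset (log2 0.47). Tfpi (tissue factor pathway inhibitor) did not pass with all libraries (log2 -0.49, adjusted p 0.276), but passed as lower without co-culture replicate 2, where 2 genes of the list fell.

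Of 12 transcription factors reported to act on the thrombomodulin gene in other cells, all were tested, 6 rose and 3 fell, with a median log2 fold change of 0.18. The share called is near the 75.5% of all genes tested (37.5% higher, 38% lower). Klf2, which raises thrombomodulin in endothelial cells, had 234, 262 and 312 reads with LPS and 691, 552 and 510 with co-culture. Its groups did not overlap, as with co-culture higher for 39.8% of all genes tested. It rose 2.37-fold, from 12.6 ± 0.342 to 30.0 ± 3.9 CPM, with a log2 fold change of 1.24 that became 0.51 under the same offset. Klf4, a related factor, rose 1.64-fold at a low level, 2.69 ± 0.231 to 4.42 ± 0.0501 CPM.

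Retinoic acid induces thrombomodulin, and its receptor genes were divided: Rara and Rarg rose 1.74-fold and 1.83-fold, Rarb fell 2.24-fold and Rxra did not pass, but passed as lower with library totals (log2 -0.38), on all FPKM scales, under the offset (log2 -0.26, adjusted p 0.0222, edgeR) and without co-culture replicate 3 (log2 -0.23). Rela, the NF-kB subunit through which TNF lowers thrombomodulin in endothelium, rose 1.88-fold, from 47.0 ± 0.351 to 88.0 ± 11.6 CPM. Sp1 fell 1.78-fold. Hsf1, the heat shock factor, rose 1.19-fold, and lost its call with library totals (log2 0.07, adjusted p 0.399, edgeR). Creb1, the cAMP-responsive factor, was 1.33-fold lower, and turned to a log2 fold change of 0.48 under the offset.

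**Figure D3:**
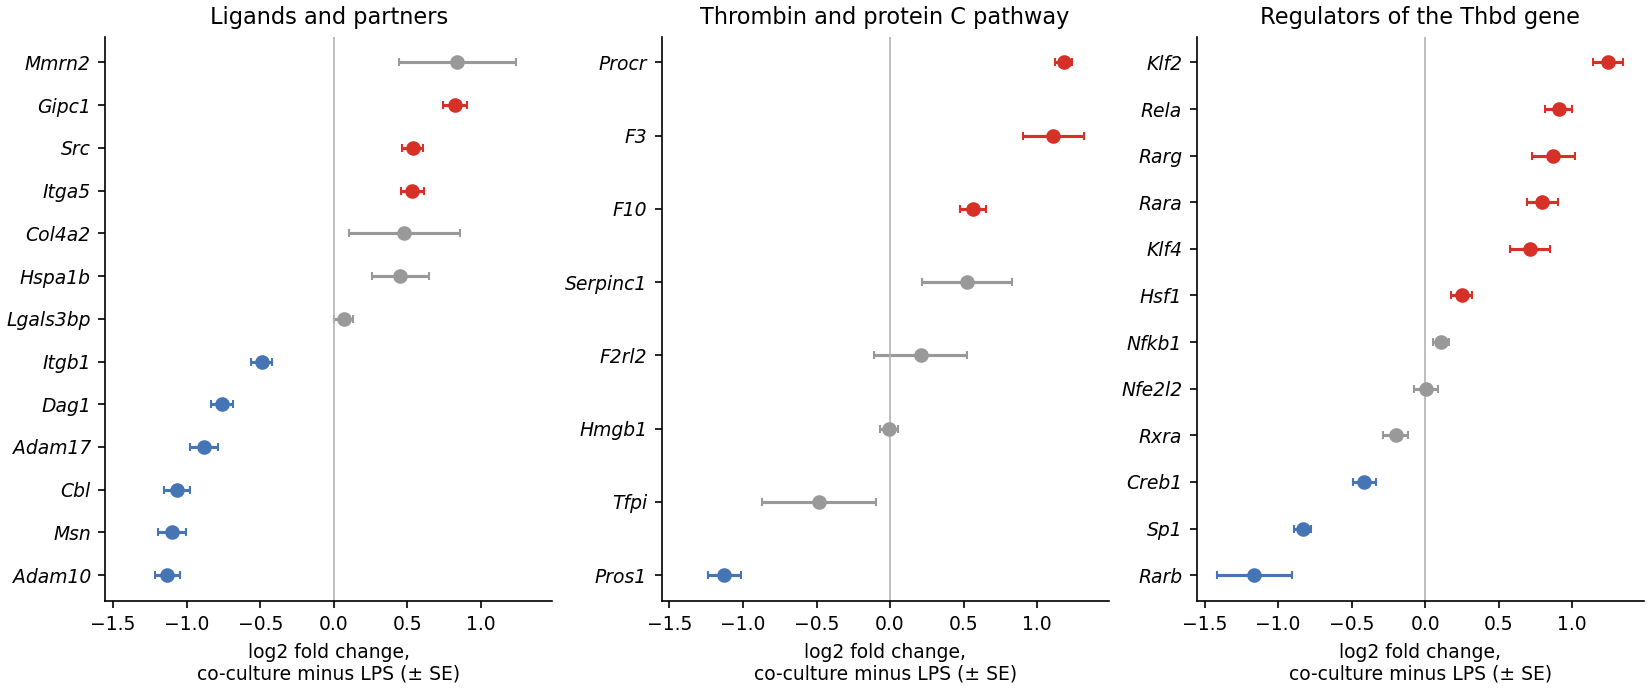
Log2 fold change (co-culture minus LPS, bars are SE) of tested genes for ligands and partners, the thrombin and protein C pathway and factors reported to act on Thbd; red and blue points passed an adjusted p of 0.05 as higher and lower, grey points did not, and F5, with 0 reads in the LPS group, and 1 gene not reported here are left out. Procr at 1.18 and Klf2 at 1.24 are among the genes that rose, and Adam10 at -1.13, Msn at -1.10 and Pros1 at -1.13 among those that fell.

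Cd93, Thbd and Clec14a are also used as endothelial markers and Cd248 as a stromal marker, so markers of other cell types were read beside them. The 14 endothelial markers summed to 3.02 to 4.04 CPM with LPS and 6.45 to 7.62 CPM with co-culture, below the Cd93 level of 82.3 to 91.4 CPM in the same co-culture libraries. Of them 5 (Tie1, Emcn, Robo4, Erg and Sox17) had 0 reads in every library. Of 4 tested 1 rose, where 37.5% of all genes tested were called higher. This was Pecam1 (CD31, also made by leukocytes), from 1.22 ± 0.0708 to 3.65 ± 0.871 CPM. Vwf did not pass (log2 0.54, adjusted p 0.141, edgeR). It passed as higher under the offset for length and GC (log2 0.83, adjusted p 0.0294, edgeR), alone or with the replicate block (log2 0.79). The same held without co-culture replicate 3 (log2 0.76, adjusted p 0.0403, edgeR). Among those with too few counts to be tested, Egfl7 had 1, 2 and 2 reads with LPS and 18, 6 and 13 with co-culture. For Esam these were 3, 4 and 2 against 9, 8 and 7. Kdr, Tek and Flt4, also not tested, had at most 4 reads, and their groups overlapped. Cdh5 (VE-cadherin) stood at 0.598 ± 0.142 and 0.345 ± 0.119 CPM and did not pass. It passed as lower with library totals (log2 -0.96) and without co-culture replicate 3 (log2 -1.08, adjusted p 0.0482, edgeR). In these fits Cdh5 met the filter on low counts through the LPS group alone, so those calls lend no support.

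The 15 stromal markers summed to 15.5 to 17.9 CPM with LPS and 22.0 to 24.7 CPM with co-culture. Of these, 5 (Col1a2, Col3a1, Thy1, Cxcl12 and Postn) had 0 reads in every library. Of 4 tested 1 rose and 2 fell, where 37.5% of all genes tested were called higher and 38% lower. The one that rose was Acta2, a smooth muscle actin, from 10.2 ± 0.553 to 18.3 ± 1.84 CPM. Acta2 made up most of the stromal sum in every library, so the higher sum does not describe the list as a whole. Dcn (decorin) did not pass, and was higher under the offset (log2 0.59). Lum fell 2.65-fold, but it passed the filter on low counts through the LPS group alone and so had to differ. It is part of the count of 2 that fell. Runx2, 1.39-fold lower, lost its call without LPS replicate 1 (adjusted p 0.0833, edgeR), LPS replicate 2 (0.0769) or co-culture replicate 2 (0.0852). The call was also lost with DESeq2 (adjusted p 0.0681) and under the offset (log2 -0.20, adjusted p 0.314, edgeR). Reads were assigned to mouse genes, and the species of the BMSCs was not given, so the part that BMSC RNA could have in these values was not tested.

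Cd93 is also known as the early B cell marker AA4.1. Of 11 B cell progenitor and stem cell markers none had enough counts to be tested, 3 had 0 reads, Igll1 and Rag1 among them, and the sum was 0.459 to 0.761 CPM with LPS and 0.666 to 0.847 CPM with co-culture. The 8 neutrophil markers summed to 8.99 to 10.5 and 8.32 to 11.1 CPM, with 0 reads for Ly6g and Ltf; Csf3r, the G-CSF receptor, fell 1.41-fold and Camp, an antimicrobial peptide gene, rose 5.26-fold from 0.635 ± 0.159 CPM, or by a log2 fold change of 1.31 in place of 2.40 under the offset. The 6 platelet markers summed to 4.51 to 6.61 CPM with LPS and 28.2 to 31.9 CPM with co-culture. Most of that sum was Pf4 and Ppbp, chemokines of platelet granules, which rose 6.59-fold and 6.49-fold; under the offset the log2 fold change of Pf4 went from 2.72 to 1.77. Itga2b was 2.02-fold higher and lost its call without LPS replicate 3 (adjusted p 0.0881, edgeR) or co-culture replicate 1 (0.0888), and Gp9 had 0 reads. The part of platelet-list genes in the Cd93 and Thbd values was not tested.

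**Figure D4:**
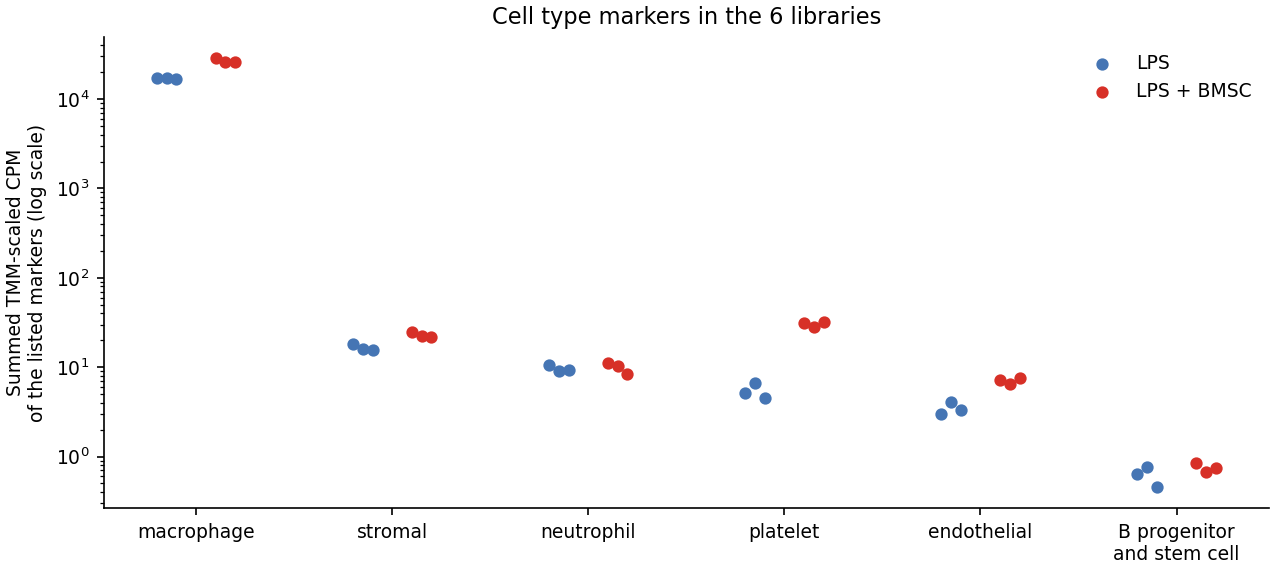
Summed TMM-scaled CPM of 6 marker lists in each of the 3 LPS and 3 LPS + BMSC libraries, on a log axis. Macrophage markers stand at 16643 to 28648 CPM, while each other list sums to less than 32 CPM, and the macrophage, platelet, endothelial and stromal sums are higher in all 3 co-culture libraries than in any LPS library. Acta2 makes up most of the stromal sum, and of 4 tested stromal genes 1 rose and 2 fell.

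The genes whose pattern over the 6 libraries was most like that of Cd93 were named by distance. Likeness was the Euclidean distance between log2 CPM values centred on each gene's mean, over 8585 protein-coding genes whose mean log2 CPM was 3 or more, where the median distance was 6.37. The 5 nearest were Dgat2 (1.33), which makes triglycerides, the cytokine Il33 (1.34), the calcium-binding S100a8 (1.39), the costimulatory receptor Tnfrsf9 (1.42) and the matrix protein Thbs1 (1.49). Each was 16.6-fold to 19.2-fold higher in co-culture, less than Cd93, and under the offset the log2 fold change of S100a8 went from 4.08 to 3.39. Thbd, which is below that level and so was not a candidate, had a distance of 1.42. With 6 libraries in 2 separated groups, this distance reflects mostly the size of the group difference and is given as a description.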

How the data were processed

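RNA-seq was made from poly(A)-selected RNA of 6 libraries, per the labels' protocols; no strand-marking step is described. The authors deposited read counts and FPKM per gene. The submitters' processing notes list HISAT2 2.0.5 and mm10; the counter and annotation were not named there. In the deposited table FPKM is the count over the table's length and the library total, rescaled. The table's start equals that of GENCODE M21 for 517 of 21850 matched rows, so coordinates were taken from M21 by identifier (GRCm38); 1 line without values was not analysed here.

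Counts were tested with edgeR 4.0.16 (R 4.3.3, quasi-likelihood, robust, TMM, default filter, group only), with Benjamini-Hochberg adjustment over 11103 genes and a threshold of 0.05. SE is the log2 fold change divided by the root of the F statistic. Depth was 17716460 to 22539884 counts; reads carry no molecular identifiers, so floors (3 counts) and intervals cover counting error only. No 2 replicates agreed within sampling noise. The script recovered the changed genes of simulated data. Alternatives used DESeq2 1.42.0 and limma 3.58.1, and splines with 5 degrees of freedom for length and GC content. Coding sequences were aligned locally (match 2, mismatch -3, gap -5 and -2).

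Named genes were the members, members of 5 lists (pathway genes and neighbours within 1 Mb), 6 marker lists and the 5 genes most like Cd93. A few list genes are counted but not reported here by name. Members and lists were chosen with earlier results of these data known. Replicates may share a culture source, in which case p-values measure only the spread between these libraries.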

Additional observations from a re-analysis of the deposited data

How the results depend on the processing

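Under 17 alternatives, the log2 fold change of Cd93 stayed positive, from 3.29 (log2(FPKM + 1)) to 5.53 (length and GC offset). That of Thbd was positive and past the threshold in the 14 that tested it, from 0.92 (log2(FPKM + 1), no filter) to 5.24 (without LPS replicate 2), with adjusted p up to 5.54e-05, which lends no support in the filtered fits, since it entered through the co-culture group alone; it was not tested with a mean FPKM of at least 1 or with 10 counts in every library. Leaving out libraries gave 5.17 to 5.31 for Cd93 and 4.54 to 5.24 for Thbd. Without a filter Cd248 had a log2 fold change of 1.92 (SE 1.94, adjusted p 0.428, edgeR), from 1 read. Clec14a could not be fitted.

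Genes called numbered 7537 to 8576 against 8382. The replicate block gave 8217 calls, 5.22 for Cd93 and 4.86 for Thbd; same-numbered libraries did not deviate together (correlations -0.042, -0.024 and 0.040), and LPS replicate 2, for example, correlated best with co-culture replicate 1 (0.10). The pairs share only a number, and the block by itself changed no call of a gene named in the report.

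In the thrombin and protein C list, 2 genes were lower, in place of 1, with library totals and on all FPKM scales, and 3 rose, in place of 5, on both FPKM scales with the filter, where fewer genes were tested; leaving out libraries gave 5 to 6 higher and 1 to 2 lower. Among the neighbours, 2 were lower, in place of 1, with library totals, on all FPKM scales and with the length and GC offset, with or without the block; with that offset 1 was higher, in place of 2. Leaving out libraries gave 2 higher and 1 to 2 lower, with Gzf1 lower without co-culture replicate 3. Of 48 other called genes, 39 kept their call and direction under every alternative that tested them. With the length and GC offset, alone and with the block, Creb1 (0.48 in both), Nxt1 (-0.40) and Cd68 (-0.23) reversed, as did 3 genes not called before: Hmgb1 (0.47), Lgals3bp (-0.36) and, with the offset alone, Dcn (0.59). Adgre1 and Csf1r turned lower (-0.17 each) with library totals and on FPKM. F10 and Gipc1 lost their calls with that offset, Klf4 with it and the block together (0.35, adjusted p 0.0691, edgeR) and Hsf1 with library totals and on FPKM. Runx2 and Itga2b lost theirs in some fits. Where no construction is named, the cause was not tested.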

Other observations

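Cd93 and Thbd were not the only adjacent pair that was far higher in co-culture, a count made after their values were seen. Of 49 protein-coding genes that passed with a fitted change of at least 10-fold higher, several lay side by side: among 7329 pairs of protein-coding genes that are next to each other in the table and both tested, 9 pairs had both genes past that size. Besides Thbd and Cd93 these were Csf2 (the cytokine GM-CSF) with P4ha2, the bradykinin receptor genes Bdkrb1 and Bdkrb2, Gad1 with Erich2, Gm9745 with Idi2, and 4 pairs within the Sprr2 cluster, whose copies are so alike that single-gene counts are uncertain. Csf2 had 5, 7 and 8 reads with LPS and 262, 153 and 179 with co-culture, and Bdkrb1 had 7, 9 and 11 and 225, 180 and 184. Several of these genes, Csf2, Gad1 and Erich2 among them, passed the filter on low counts through the co-culture group alone. Like Thbd they had to differ, and Cd93 was chosen for its rise, so the count of pairs is given as a description.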
